A study of Mus musculus with 17 samples.

Results

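The insulin-like growth factor (IGF) axis was described in cardiac fibroblasts (CFs) sorted from infarcted mouse hearts through 9 genes, which were taken by symbol from the 31053 genes of the deposited table. They are the ligand *Igf1*, the receptors *Igf1r* and *Igf2r*, and the IGF binding protein (IGFBP) genes *Igfbp2*, *Igfbp3*, *Igfbp4*, *Igfbp5*, *Igfbp6* and *Igfbp7*. The 9 genes passed the filter on low counts, *Igfbp2* only through libraries of 5 and 6 dpi. Bulk RNA-seq was performed on 17 libraries, with 3 libraries each at 1, 2, 4 and 6 days post-infarction (dpi), 4 at 3 dpi and 1 at 5 dpi. Each library came from C57BL/6 mice of the genotype Collagen1a1-GFP+ at 8 to 10 weeks of age, in which a collagen I promoter drives GFP, and from GFP+/CD31-/CD45- cells, a gate that excludes endothelial cells and leukocytes. Every group carried the reporter and an infarct made by permanent ligation of the left anterior descending coronary artery, and uninjured hearts were not analysed here, so that each comparison is between days after injury. The study's methods call the replicates of each population biological. The labels do not say whether libraries of a day came from separate mice, and p-values measure the spread between libraries, which may be in part technical.

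IGF1 is a secreted growth factor that binds the receptor tyrosine kinase IGF1R, which signals through insulin receptor substrates, PI3K and AKT to growth, protein synthesis and survival. IGF2R, the cation-independent mannose 6-phosphate receptor, has no kinase domain. It clears IGF2 from the cell surface and carries mannose 6-phosphate tagged enzymes to lysosomes. IGFBPs hold IGFs outside the cell, limit or prolong their access to the receptor, and release them when proteases cut the binding protein. In the heart, IGF1 is known as a growth and survival signal for cardiomyocytes, and fibroblasts and macrophages are among its local sources.

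Total counts per library ranged from 8021815 to 22029938. The 7 fibroblast markers examined (*Col1a1*, *Col1a2*, *Pdgfra*, *Dcn*, *Tcf21*, *Ddr2* and *Lum*) had counts in every library and summed to 10400 to 31900 CPM, the reads of a gene per 1000000 reads of its library's normalised size. Among markers of excluded cells, the leukocyte gene *Ptprc*, which encodes CD45, was at 0 in 12 libraries. The 10 macrophage and leukocyte markers summed to 8.83 to 36.5 CPM at 1, 2, 4 and 6 dpi, to 79.2 CPM at 5 dpi and to 46.5 to 230 CPM at 3 dpi, where replicates 3 and 4 were the highest. The 6 mural cell markers summed to 33.9 to 63.7 CPM at 1 and 2 dpi and to 94.8 to 190 CPM on later days, and none of the 6 was at 0 in any library. The 6 cardiomyocyte markers summed to 7.89 to 34.8 CPM at 1, 2, 3 and 5 dpi, to 39.9 to 67.5 CPM at 4 dpi and to 74.5 to 175 CPM at 6 dpi. The 6 mesothelial markers stayed between 14.0 and 205 CPM except in replicate 2 of 6 dpi, at 599 CPM. The 7 endothelial markers summed to 16.1 to 55.7 CPM. The libraries also differed in their sex-linked transcripts. Counts of *Xist* exceeded those of 4 Y-linked genes in replicate 1 of 1 dpi and in each library of 4 and 6 dpi, and the reverse held in the other libraries. Some libraries carried both. On raw library sizes, replicate 1 of 1 dpi had *Xist* at 208 CPM and Y-linked genes at 10.5 CPM. Replicate 2 of 1 dpi had 20.9 and 66.05 CPM. At 4 and 6 dpi Y-linked genes were at most at 0.78 CPM. Day and the pattern of sex-linked counts cannot be told apart between 3 and 4 dpi. Only 1 dpi held libraries of both kinds, so a fit with this pattern as a term rests on its replicate 1. The descriptions of the 3 dpi libraries follow another naming scheme than those of the other days, which likewise cannot be told apart from day 3.

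**Figure D1:**
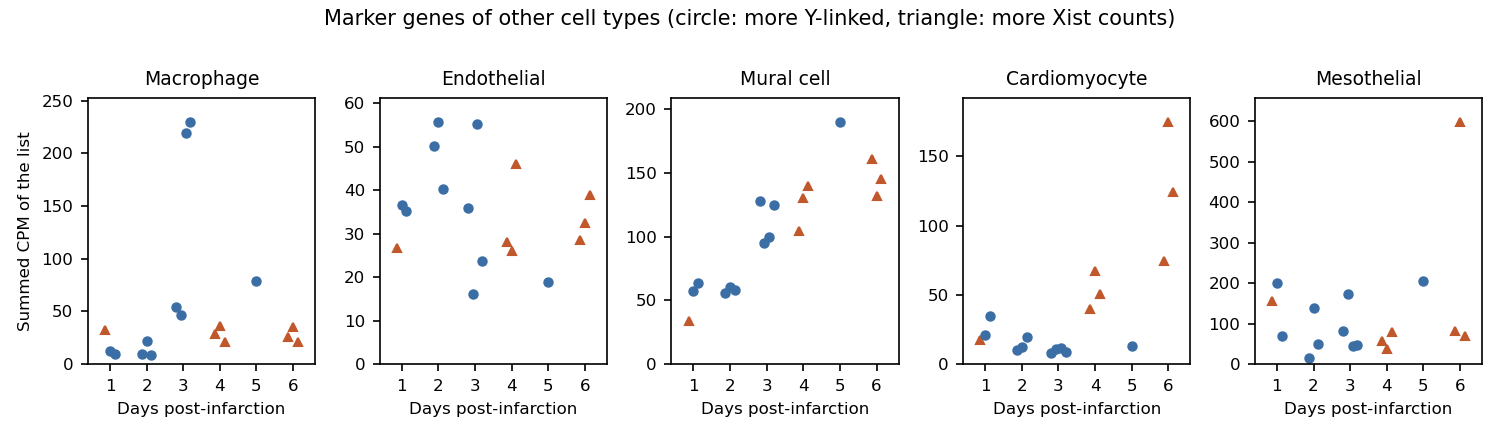
Summed TMM-normalised CPM of marker genes of other cell types in each library against days post-infarction, with circles where Y-linked counts exceeded *Xist* counts and triangles for the reverse. Macrophage markers peaked in replicates 3 and 4 of 3 dpi (219 and 230 CPM), and mesothelial markers in replicate 2 of 6 dpi (599 CPM).

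Positions of the genes are from GENCODE vM21 on the GRCm38 build. *Igf1* is at chr10:87858265-87937042, *Igf1r* at chr7:67952827-68233668 and *Igf2r* at chr17:12682406-12769664. *Igfbp3* (chr11:7206086-7213923) and *Igfbp4* (chr11:99041244-99054392) share a chromosome but are far apart, *Igfbp6* is at chr15:102144362-102149511 and *Igfbp7* at chr5:77349240-77408041. *Igfbp2* (chr1:72824503-72852474) and *Igfbp5* (chr1:72857932-72874884) are neighbours that point towards each other on opposite strands, with 5457 bases between them. *Igfbp7* shares exon bases with *Polr2b* on the opposite strand, and reads there cannot be told apart without strand. *Polr2b* had 128 to 567 counts per library against 35004 to 240509 for *Igfbp7*.

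Promoters are shown for the genes with the calls that held under most settings, *Igfbp6* and *Igfbp3*, which fell, and *Igf2r*, which rose, in the comparison of 3 to 5 with 1 to 2 dpi. Each is the stretch of 250 bases before the RefSeq start on GRCm38.p6, written 5′ to 3′ on the gene's strand, at chr15:102143936-102144185 (plus strand), chr11:7213924-7214173 (minus strand) and chr17:12769707-12769956 (minus strand), and none of these bases lies in an annotated exon. The capitals mark matches on either strand to 5 motifs chosen with these sequences in view, the TATA motif TATANA, the E-box CACGTG, the GC box GGGCGG, the AP-1 motif TGANTCA and CCAAT.
Igfbp6: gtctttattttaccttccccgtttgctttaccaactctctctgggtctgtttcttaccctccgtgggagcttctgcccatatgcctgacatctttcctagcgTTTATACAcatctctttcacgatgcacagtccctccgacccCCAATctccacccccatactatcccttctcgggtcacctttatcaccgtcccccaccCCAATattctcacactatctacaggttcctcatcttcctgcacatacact
Igfbp3: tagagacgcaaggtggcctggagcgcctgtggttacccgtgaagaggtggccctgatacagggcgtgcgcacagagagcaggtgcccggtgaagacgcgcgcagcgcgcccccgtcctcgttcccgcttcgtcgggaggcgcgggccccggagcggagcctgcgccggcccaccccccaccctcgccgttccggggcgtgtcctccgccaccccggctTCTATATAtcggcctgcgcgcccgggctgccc
Igf2r: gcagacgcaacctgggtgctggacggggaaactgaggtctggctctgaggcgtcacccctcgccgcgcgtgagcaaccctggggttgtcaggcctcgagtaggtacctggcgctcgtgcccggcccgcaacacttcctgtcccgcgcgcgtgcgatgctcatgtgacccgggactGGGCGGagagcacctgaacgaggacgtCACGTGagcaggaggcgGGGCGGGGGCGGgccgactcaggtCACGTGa
The *Igfbp6* stretch held CCAAT at -107 and -50, counted from the start, and overlapping TATANA matches at -148 and -146. The *Igfbp3* stretch held overlapping TATANA matches at -32 and -30. The *Igf2r* stretch held CACGTG at -48 and -7 and GGGCGG at -75, -31 and -25. Of 32851 promoters of the same length, TATANA was in 22.6%, CACGTG in 6.02%, GGGCGG in 32.7%, TGANTCA in 6.75% and CCAAT in 33.8%. GC content was 49.6% for *Igfbp6*, 73.2% for *Igfbp3* and 69.2% for *Igf2r*. These matches describe the sequence and no binding was measured.

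Across 1 to 6 dpi, 6 of the 9 genes changed at an adjusted p under 0.05, against 15.0% of the 14030 genes tested (edgeR's quasi-likelihood F-test, Benjamini-Hochberg adjustment). These were *Igf1*, *Igf2r*, *Igfbp3*, *Igfbp4*, *Igfbp5* and *Igfbp6*. *Igfbp2* (adjusted p = 0.0667), *Igfbp7* (adjusted p = 0.277) and *Igf1r* (adjusted p = 0.555) did not pass. In DESeq2, which called 3757 genes across days against 2099 in edgeR, 7 of the 9 passed, with *Igfbp2* added (adjusted p = 0.0175). *Igfbp2* also passed in edgeR when every gene with at least 1 count was kept (adjusted p = 0.0151). The day of the highest mean differed among the 9 genes. It was 6 dpi for *Igfbp2*, *Igfbp4*, *Igfbp5* and *Igfbp6*, 2 dpi for *Igf1* and *Igf1r*, 3 dpi for *Igf2r* and *Igfbp7*, and 1 dpi for *Igfbp3*. No gene was highest at 4 or 5 dpi. Libraries are counted at their 3′ ends, and levels were not compared between genes. In bulk samples, fewer cells of a type and less RNA per cell cannot be told apart.

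**Figure D2:**
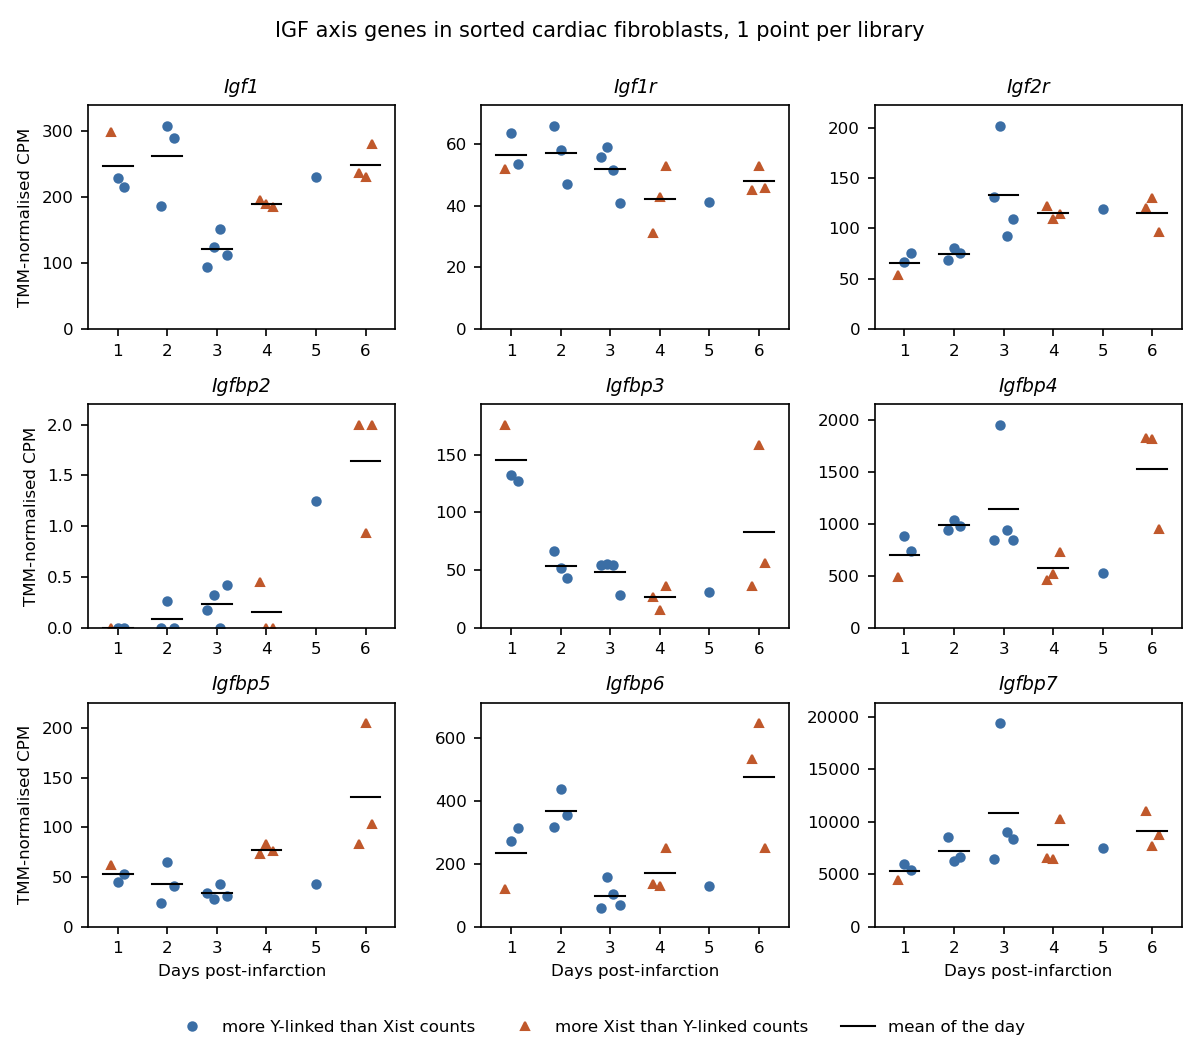
TMM-normalised CPM (linear scale from 0) of the 9 genes in each of the 17 libraries against days post-infarction, with a bar at the mean of each day with more than 1 library and symbols as for the sex-linked pattern. *Igf1* and *Igfbp6* were lowest at 3 dpi, *Igf2r* was higher from 3 dpi on than at 1 and 2 dpi, and *Igfbp3* was highest at 1 dpi.

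The ligand *Igf1* fell at 3 dpi and was back in its earlier range at 6 dpi. Its level was 299, 229 and 215 CPM at 1 dpi, 187, 308 and 290 CPM at 2 dpi, 94.4, 125, 152 and 112 CPM at 3 dpi, 196, 190 and 185 CPM at 4 dpi, 231 CPM at 5 dpi and 237, 230 and 281 CPM at 6 dpi, each in the order of the replicate numbers. Every 3 dpi library was below each library of the other days. The mean was 262 ± 65.4 CPM (SD, n = 3) at 2 dpi and 121 ± 24.2 CPM (SD, n = 4) at 3 dpi, a log2 fold change of -1.12 ± 0.23 (SE; edgeR, adjusted p = 0.0126). The level at 4 dpi was above that at 3 dpi in 3 of 3 libraries, with a log2 fold change of 0.66 ± 0.23 (SE) that did not pass the test (edgeR, adjusted p = 0.134). The 6 dpi and 1 dpi libraries overlapped, with means of 250 and 248 CPM. In order of mean level, 3 dpi stood apart from 4 dpi and 4 dpi from 5 dpi, and the ranges of 5, 1, 6 and 2 dpi overlapped one after the other. Macrophage markers, of cells that also make IGF1, were highest at 3 dpi, where *Igf1* was lowest, and their part in the result was not tested. Without replicates 3 and 4 of 3 dpi, the log2 fold change from 2 to 3 dpi was -1.25 (edgeR, adjusted p = 0.032). Fitted on the libraries of these days alone, the step from 2 to 3 dpi did not pass (edgeR, adjusted p = 0.0571). Without replicate 2 or 3 of 2 dpi the adjusted p was 0.0991 or 0.0611, and without the 3 dpi libraries *Igf1* did not pass across the other days (edgeR, adjusted p = 0.516). The call across 1 to 6 dpi (edgeR, adjusted p = 0.0146) ended without replicate 1 (adjusted p = 0.0596) or 4 (adjusted p = 0.0524) of 3 dpi, and without replicates 3 and 4 together (adjusted p = 0.0595).

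The signalling receptor *Igf1r* did not pass the test in any comparison. Its libraries ranged from 31.2 CPM at 4 dpi to 65.9 CPM at 2 dpi, and its daily means ran from 41.3 CPM in the 5 dpi library to 57.0 ± 9.49 CPM (SD, n = 3) at 2 dpi. Neighbouring days in this order overlapped throughout. From 1 to 2 dpi to 3 to 5 dpi the log2 fold change was -0.34 ± 0.17 (SE; edgeR, adjusted p = 0.262).

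The scavenging receptor *Igf2r* was higher from 3 dpi on. It was at 53.3, 66.7 and 75.8 CPM at 1 dpi, 68.2, 80.7 and 75.9 CPM at 2 dpi, 131, 202, 92.2 and 109 CPM at 3 dpi, 122, 109 and 114 CPM at 4 dpi, 119 CPM at 5 dpi and 120, 130 and 96.1 CPM at 6 dpi. Each of the 8 libraries of 3 to 5 dpi was above each of the 6 of 1 and 2 dpi, and no other of the 9 genes separated these groups, against 2.31% of the genes tested. The log2 fold change was 0.81 ± 0.19 (SE; edgeR, adjusted p = 0.00963). The call held without any single library and without the 3 dpi libraries (log2 fold change 0.72; edgeR, adjusted p = 0.018). In the libraries where Y-linked counts exceeded *Xist*, the log2 fold change was 0.79 and the call was lost (edgeR, adjusted p = 0.0826). Between 6 and 1 dpi the log2 fold change was 0.82 ± 0.26 (SE; edgeR, adjusted p = 0.0476), a call that ended when any of 13 libraries was left out, with adjusted p up to 0.178. Of the libraries left out in turn, only replicates 2 and 3 of 3 dpi and replicate 3 of 6 dpi could be left out with the call kept. The summed mural cell markers were likewise higher in each library of 3 to 5 dpi than in those of 1 and 2 dpi, and their part in the result was not tested. The call of *Igf2r* across 1 to 6 dpi (edgeR, adjusted p = 0.0362) ended without any of 11 libraries, namely any of 1 or 2 dpi, replicate 1 of 3 dpi, and replicates 1 and 2 of 4 and of 6 dpi, with adjusted p up to 0.103. It also ended with the sex-linked class as a term (edgeR, adjusted p = 0.0535).

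*Igfbp3*, which encodes the main IGF carrier of the circulation, fell after 1 dpi. It was at 176, 132 and 127 CPM at 1 dpi, 66.8, 51.8 and 42.8 CPM at 2 dpi, 54.4, 55.3, 54.1 and 28.3 CPM at 3 dpi, 26.9, 15.4 and 36.6 CPM at 4 dpi, 30.7 CPM at 5 dpi and 36.2, 158 and 55.8 CPM at 6 dpi. Each 1 dpi library was above every library of 2 to 5 dpi, and 1 library of 6 dpi reached the 1 dpi range. From 1 to 2 dpi to 3 to 5 dpi the log2 fold change was -1.38 ± 0.32 (SE; edgeR, adjusted p = 0.00865), and it held under each of 28 alternatives. From 1 to 2 dpi it was -1.43 ± 0.42 (SE) and did not pass (edgeR, adjusted p = 0.32), although the means were 145 ± 26.8 and 53.8 ± 12.1 CPM (SD, n = 3 each). Against 1 dpi, 6 dpi differed by -0.80 ± 0.42 (SE, log2; edgeR, adjusted p = 0.222). Without replicate 2 of 6 dpi, which held 599 CPM of mesothelial markers against 70.5 and 82.2 CPM in the other two, this difference was -1.66 (edgeR, adjusted p = 0.0131). The part of mesothelial cells in it was not tested. From 4 to 6 dpi the log2 fold change was 1.67 ± 0.43 (SE) and did not pass (edgeR, adjusted p = 0.0655), and it was 0.81 without replicate 2 of 6 dpi.

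*Igfbp4*, whose product is cut by the protease PAPP-A, had its highest mean at 6 dpi and its highest library, replicate 2, at 3 dpi. It was at 492, 882 and 738 CPM at 1 dpi, 948, 1040 and 983 CPM at 2 dpi, 847, 1960, 946 and 849 CPM at 3 dpi, 463, 520 and 734 CPM at 4 dpi, 528 CPM at 5 dpi and 1830, 1820 and 956 CPM at 6 dpi. The libraries of 4 dpi were below those of 3 and 6 dpi without overlap. Between 6 and 1 dpi the log2 fold change was 1.12 ± 0.35 (SE; edgeR, adjusted p = 0.0436), and the groups did not overlap. From 4 to 6 dpi it was 1.42 ± 0.36 (SE) and did not pass (edgeR, adjusted p = 0.0613). The 6 against 1 dpi call ended without any of 10 libraries, namely any of 1 or 2 dpi and replicates 1 and 2 of 4 and of 6 dpi, with adjusted p up to 0.177. The call across 1 to 6 dpi (edgeR, adjusted p = 0.0353) ended without replicate 1 or 3 of 1 dpi, replicate 2 or 3 of 2 dpi, or replicate 1 or 2 of 4 or of 6 dpi, with adjusted p up to 0.113.

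*Igfbp5*, which encodes a binding protein that also attaches to extracellular matrix, rose late. It was at 62.5, 44.7 and 52.8 CPM at 1 dpi, 23.7, 65.5 and 40.6 CPM at 2 dpi, 34.0, 27.4, 43.1 and 30.6 CPM at 3 dpi, 73.3, 83.6 and 76.1 CPM at 4 dpi, 42.9 CPM at 5 dpi and 83.1, 205 and 103 CPM at 6 dpi. The 4 dpi libraries were above those of 3 dpi without overlap, and the 5 dpi library, in which Y-linked counts exceeded *Xist* as at 3 dpi, was within the 3 dpi range. The log2 fold change from 3 to 4 dpi was 1.20 ± 0.32 (SE; edgeR, adjusted p = 0.0458). The change cannot be told apart from the change of sex-linked pattern between these days, and the call ended without any of 10 libraries, namely any of 1 or 4 dpi, replicate 3 of 2 dpi and replicates 1, 2 and 4 of 3 dpi, with adjusted p up to 0.153. Between 6 and 1 dpi the log2 fold change was 1.29 ± 0.34 (SE; edgeR, adjusted p = 0.0191). Without replicate 2 of 6 dpi, the library with the most mesothelial counts, it was 0.81 (edgeR, adjusted p = 0.16), and without replicate 2 or 3 of 1 dpi the adjusted p was 0.0825 or 0.0603. With the sex-linked class as a term, *Igfbp5* did not pass across 1 to 6 dpi (edgeR, adjusted p = 0.347). Only 1 dpi held both classes, so this term rests on its replicate 1.

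*Igfbp6*, whose product prefers IGF2 to IGF1, fell at 3 dpi in every library. It was at 120, 274 and 314 CPM at 1 dpi, 316, 437 and 356 CPM at 2 dpi, 58.3, 157, 104 and 68.7 CPM at 3 dpi, 137, 128 and 252 CPM at 4 dpi, 129 CPM at 5 dpi and 535, 648 and 249 CPM at 6 dpi. The 3 dpi libraries were below those of 2 dpi without overlap, and at 1 dpi replicate 1, the library with more *Xist* counts, lay within the 3 dpi range. From 2 to 3 dpi the log2 fold change was -1.93 ± 0.39 (SE; edgeR, adjusted p = 0.011). Without replicate 2 of 2 dpi it did not pass (edgeR, adjusted p = 0.0737), and without the macrophage-rich replicates 3 and 4 of 3 dpi it was -1.77 (edgeR, adjusted p = 0.0684). From 1 to 2 dpi to 3 to 5 dpi the log2 fold change was -1.19 ± 0.31 (SE; edgeR, adjusted p = 0.0203). This call ended without replicate 3 of 1 dpi (adjusted p = 0.056), without replicate 2 of 2 dpi (adjusted p = 0.0506) and without the 3 dpi libraries (edgeR, adjusted p = 0.0985). With the sex-linked class as a term the log2 fold change was -0.92 and the call ended as well (edgeR, adjusted p = 0.0689). From 4 to 6 dpi the log2 fold change was 1.47 ± 0.42 (SE) and did not pass (edgeR, adjusted p = 0.0882).

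*Igfbp7*, which encodes a matrix-associated protein with low affinity for IGFs, did not pass the test in any comparison of 17 libraries. Its lowest, median and highest libraries were 4430, 5380 and 5960 CPM at 1 dpi, 6260, 6680 and 8570 CPM at 2 dpi, 6450, 8700 and 19400 CPM at 3 dpi, 6470, 6520 and 10300 CPM at 4 dpi and 7660, 8780 and 11000 CPM at 6 dpi, with 7490 CPM at 5 dpi. The 6 dpi libraries were above those of 1 dpi without overlap, with a log2 fold change of 0.80 ± 0.36 (SE; edgeR, adjusted p = 0.161). Without replicate 2 of 3 dpi it passed (edgeR, adjusted p = 0.0411). Replicate 2 of 3 dpi held the highest level of *Igfbp7*, and also of *Igf2r* and *Igfbp4*, among the 17 libraries.

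*Igfbp2*, an IGFBP gene of fetal tissues and liver, was near the limit of counting. It had 0 counts in each 1 dpi library, 0, 5 and 0 counts at 2 dpi, 2, 4, 0 and 4 counts at 3 dpi, 7, 0 and 0 counts at 4 dpi, 12 counts at 5 dpi and 31, 11 and 26 counts at 6 dpi. The 6 dpi libraries held 68 counts of 43563526, or 1.56 CPM, against 0 of 49742446 at 1 dpi. With a floor of 3 counts over the 1 dpi libraries, or 0.0603 CPM, the pooled level at 6 dpi was 25.9-fold the floor. On normalised sizes the 6 dpi libraries ran from 0.937 to 2.0 CPM, a spread that this ratio leaves out. The comparison of 6 with 1 dpi passed (edgeR, adjusted p = 0.0284), on the modelled fold change and not on this floor. Only libraries of 5 and 6 dpi reached 10 counts. *Igfbp2* thus entered the tests through the days where it was high, and its call depends on that selection. The call ended without any 1 dpi library or without replicate 1 or 2 of 6 dpi, with adjusted p up to 0.0884. The floor accounts for the sampling of reads at 1 dpi, and neither for that at 6 dpi nor for PCR copying.

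Set side by side, the steps between days held few calls. Shares of the genes tested that passed are those of edgeR at an adjusted p under 0.05. None is given for DESeq2 or for unadjusted p. Over all genes, DESeq2 called 1042 from 2 to 3 dpi and 879 from 3 to 4 dpi, against 412 and 380 in edgeR. DESeq2 counts of the other steps and counts at unadjusted p have no background here. From 1 to 2 dpi, 0 of the 9 genes passed in edgeR and 0 in DESeq2, 1 gene had an unadjusted p under 0.05, and 0.178% of the genes tested passed. The libraries of these days did not overlap for 4 genes, against 15.1% of the genes tested. From 2 to 3 dpi, 2 genes passed, both lower, against 2.94% of the genes tested in either direction and 1.12% lower. The libraries of these days did not overlap for 3 genes, *Igf1*, *Igf2r* and *Igfbp6*, against 18.6% of the genes tested. From 3 to 4 dpi, 1 gene passed, *Igfbp5*, against 2.71% of the genes tested in either direction and 1.63% higher. The libraries did not overlap for 3 genes, *Igf1*, *Igfbp4* and *Igfbp5*, against 16.7% of the genes tested. From 4 to 6 dpi, 0 genes passed in edgeR, against 0.513% of the genes tested. The libraries did not overlap for 3 genes, *Igf1*, *Igfbp2* and *Igfbp4*, against 21.6% of the genes tested. In DESeq2 3 passed (*Igfbp3*, *Igfbp4* and *Igfbp6*), and 5 genes had an unadjusted p under 0.05 in edgeR. Without replicate 2 of 3 dpi or replicate 3 of 6 dpi, 3 genes passed in edgeR, and without replicate 3 of 4 dpi 2 passed. With single libraries left out, calls of this step over all genes ran from 3 to 1402, against 72 in the main fit. The estimates of this step were above 0 for 9 of 9 genes, with a median of 0.75 on the log2 scale against -0.02 over all genes tested. Among them, *Igfbp2* had passed the filter only through libraries of 5 and 6 dpi, so its sign and its part in the median depend on that selection. No share of all genes with an estimate above 0 is given. The estimates of *Igf1r*, *Igf2r* and *Igfbp7* were smaller than their SE, and that of *Igf2r* changed sign under some alternatives. A common rise was not tested.

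Over longer spans, more of the genes passed. Between 6 and 1 dpi, 4 genes passed, all higher, against 12.1% of the genes tested in either direction and 6.91% higher. These were *Igf2r*, *Igfbp2*, *Igfbp4* and *Igfbp5*, and the median over the 9 genes was 0.82 on the log2 scale against 0.03 over all genes tested. Of them, *Igfbp2* had passed the filter only through its counts at 5 and 6 dpi. The libraries of 6 and 1 dpi did not overlap for these 4 genes and for *Igfbp7*, 5 of 9, against 32.5% of the genes tested. Replicates 2 and 3 of 1 dpi also differ from the 6 dpi libraries in their sex-linked pattern. Within the libraries with more *Xist* counts, 1 at 1 dpi and 3 at 6 dpi, none of the 4 passed (edgeR, adjusted p 0.0947 to 0.239). The comparison of 3 to 5 dpi with 1 to 2 dpi covers the days for which the study profiled the transition of CFs. Here 3 genes passed, against 7.48% of the genes tested. *Igf2r* was higher, as were 5.25% of the genes tested, and *Igfbp3* and *Igfbp6* were lower, as were 2.24%. The median over the 9 genes was -0.25 on the log2 scale against -0.001 over all genes tested.

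**Figure D3:**
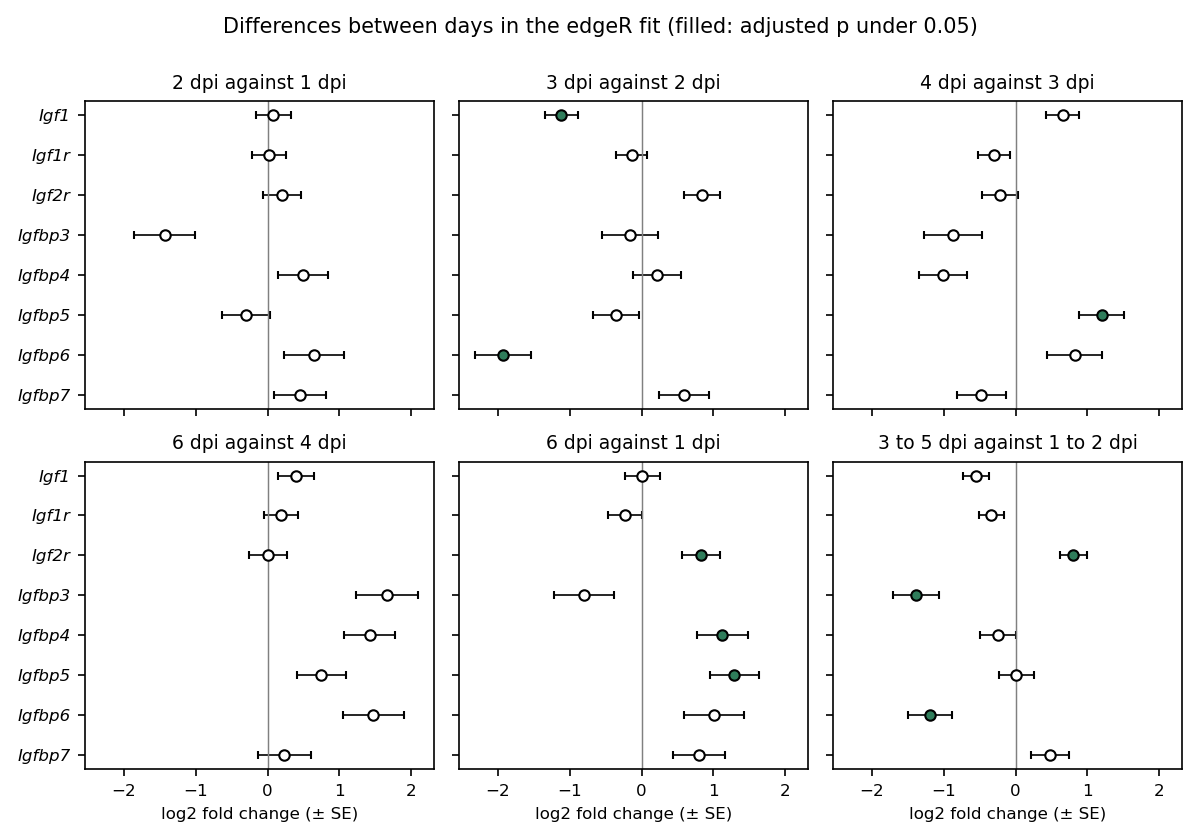
Log2 fold change with its SE, from the edgeR fit to 17 libraries, for 8 of the 9 genes in 6 comparisons, with filled points where the adjusted p was under 0.05. *Igfbp2* is left out because its fold change depends on the prior count. Filled points are *Igf1* and *Igfbp6* from 2 to 3 dpi, *Igfbp5* from 3 to 4 dpi, *Igf2r*, *Igfbp4* and *Igfbp5* between 6 and 1 dpi, and *Igf2r*, *Igfbp3* and *Igfbp6* in the comparison of 3 to 5 with 1 to 2 dpi.

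The genes did not move as one group. Over the 17 libraries, which share days and differ in depth, the highest Pearson correlations of log2 CPM were 0.71 between *Igf2r* and *Igfbp7*, 0.67 between *Igf1* and *Igfbp6* and 0.65 between *Igfbp4* and *Igfbp7*. The lowest was -0.56 between *Igf1* and *Igf2r*. The neighbours *Igfbp2* and *Igfbp5* had a correlation of 0.39. Among 8919 genes with a mean of at least 100 counts, those most like each gene were found over the same libraries, as a description. *Igf1* was most like *Fam208a* (0.89), *Rubcn* (0.88) and *Eif1* (0.85), and *Igf1r* most like *Fbxo31* (0.86). The genes most like *Igf2r* were the histone genes *Hist1h2ae* (0.91), *Hist1h2ab* (0.91) and *Hist1h2ai* (0.90), which are near-identical copies whose reads may be split uncertainly. *Igfbp3* was most like *Zbtb7b* (0.84) and *Eif4ebp2* (0.81), *Igfbp4* most like *Macrod1* (0.91) and *Igfbp7* most like *Adgrl1* (0.90). *Igfbp5* was most like *Pigyl* (0.91) and *Dkk3* (0.88), a secreted protein gene. *Igfbp6* had the closest match, *Ypel3* (0.93), with *Drap1* (0.93) and *Crip2* (0.93). *Igfbp2*, on few counts, was most like *1810058I24Rik* (0.88).

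Of 64 other genes of the pathway in 6 lists, 54 had enough counts to be tested and 9 changed across 1 to 6 dpi, or 16.7%, close to the 15.0% of the genes tested. The other ligand, *Igf2*, had too few counts to be tested, as had *Igfbp1*, *Igfbpl1*, *Igfals*, *Insrr*, *Ins1*, *Ins2*, *Adam28*, *Irs4* and *Igf2bp1*. Of the 3 tested ligand, receptor and binding protein genes, 0 passed across days in edgeR or DESeq2, and *Insr*, the insulin receptor, had an adjusted p of 0.318 (edgeR). Of the 6 growth hormone genes, with the growth hormone receptor *Ghr* among them, and of the 2 tested *Igf2* mRNA binding protein genes, 0 passed across days in edgeR or DESeq2.

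The IGFBP proteases and their inhibitors had 4 of 8 tested genes called across days, against 15.0% of all genes tested. *Stc2*, which encodes an inhibitor of PAPP-A, the protease that cuts IGFBP4, was at 3.29, 5.44 and 7.87 CPM at 1 dpi, 6.23, 8.08 and 5.23 CPM at 4 dpi and 24.1, 19.9 and 19.3 CPM at 6 dpi. The 6 dpi libraries were above each library of the other days, with a log2 fold change of 1.91 ± 0.35 (SE; edgeR, adjusted p = 0.0016) against 1 dpi and 1.69 ± 0.35 (SE; edgeR, adjusted p = 0.0412) against 4 dpi. *Pappa* itself did not pass across days (edgeR, adjusted p = 0.379). *Htra3*, a secreted serine protease gene, was at 2400, 2780 and 2550 CPM at 2 dpi and 1120, 1240, 1600 and 1030 CPM at 3 dpi, and fell by 1.07 ± 0.26 (log2, SE; edgeR, adjusted p = 0.0146) from 1 to 2 dpi to 3 to 5 dpi. *Adam9* (edgeR, adjusted p = 0.038) and *Adam12* (edgeR, adjusted p = 0.0372), membrane metalloproteinase genes, passed across days and in no comparison of days. At 6 dpi they were at 21.9, 28.0 and 90.1 CPM and at 7.88, 7.16 and 22.7 CPM, with replicate 3 the highest for both.

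Among receptor substrates and adaptors, 3 of 12 tested genes changed across days, against 15.0% of all genes tested. Neither *Irs1* (adjusted p = 0.918) nor *Irs2* (adjusted p = 0.224) passed in edgeR. *Ptpn11*, which encodes the phosphatase SHP2, was at 93.8, 85.0, 88.0 and 98.4 CPM at 3 dpi and 94.0 CPM at 5 dpi, above each library of the other days, whose highest was 65.4 CPM. It was lower at 4 than at 3 dpi by -0.82 ± 0.21 (log2, SE; edgeR, adjusted p = 0.0397), in the comparison that cannot be told apart from the sex-linked pattern. *Grb14*, an adaptor gene that restrains insulin receptor kinases, was at 6.84, 5.98 and 4.79 CPM at 1 dpi and 12.6, 17.1 and 16.9 CPM at 6 dpi, a log2 fold change of 1.41 ± 0.39 (SE; edgeR, adjusted p = 0.0227). *Socs1*, a cytokine signalling inhibitor gene, passed across days (edgeR, adjusted p = 0.0278).

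In the PI3K, AKT and mTOR branch, 2 of 23 tested genes changed across days, against 15.0% of all genes tested, and *Akt1* did not (edgeR, adjusted p = 0.126). *Deptor*, an mTOR inhibitor gene, was at 27.0, 28.1 and 29.1 CPM at 1 dpi and 11.8 to 16.3 CPM at 6 dpi, a fall of 1.03 ± 0.28 (log2, SE; edgeR, adjusted p = 0.0204). *Pik3r3*, a regulatory subunit gene of PI3K, rose by 1.74 ± 0.40 (log2, SE; edgeR, adjusted p = 0.00884) from 1 to 2 dpi to 3 to 5 dpi, and its highest level, 12.5 CPM, was in the 5 dpi library. The pathway genes called in edgeR were 0, 0, 1 and 1 of 54 in the steps from 1 to 2, 2 to 3, 3 to 4 and 4 to 6 dpi. The shares of the genes tested were 0.178%, 2.94%, 2.71% and 0.513%. Between 6 and 1 dpi 3 were called, or 5.56% against 12.1%, and between 3 to 5 and 1 to 2 dpi 5, or 9.26% against 7.48%. DESeq2 called 0, 3, 2, 4, 7 and 7 in these comparisons. Over all genes, it called 1042 from 2 to 3 dpi and 879 from 3 to 4 dpi. It called 2427 between 6 and 1 dpi and 1555 between 3 to 5 and 1 to 2 dpi. Nothing over all genes is given for its other steps or for unadjusted p. At an unadjusted p under 0.05 there were 3, 8, 8, 9, 14 and 13 of 54 in these comparisons, in the same order.

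**Figure D4:**
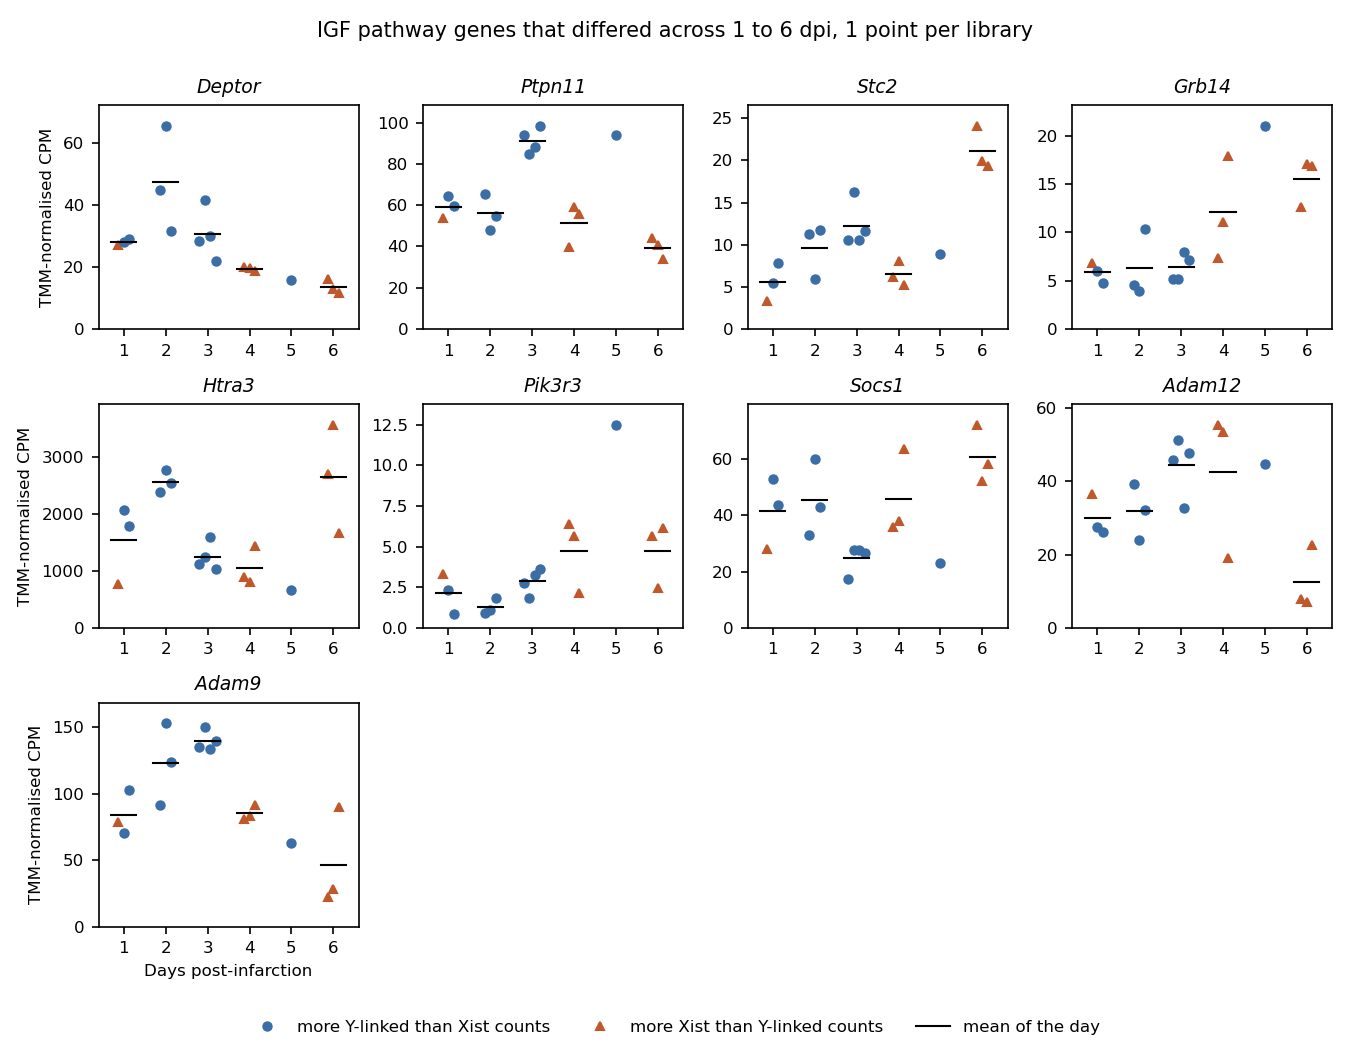
TMM-normalised CPM (linear scale from 0) of 9 other pathway genes that differed across 1 to 6 dpi, in each library against days post-infarction, ordered by the F statistic, with a bar at the mean of each day with more than 1 library. *Stc2* was highest at 6 dpi, and *Ptpn11* was high at 3 and 5 dpi.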

How the data were processed

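Poly-A RNA of sorted CFs was profiled by MARS-seq adapted to bulk samples, a 3′-end method primed from the poly-A tail. Demultiplexing by the authors used bcl2fastq (1.2.4, per the labels), alignment to mm10 used STAR, and featureCounts assigned reads to Ensembl GRCm38 genes. The deposited values are raw counts per gene, 1 column per library, without normalization, and no collapsing of duplicates is stated. Groups were taken from the sample titles. The 5 dpi library is numbered 3 in its title and 1 in its description.

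The filter required 10 or more counts in 3 or more libraries, which left 14030 genes. In R (4.3.3), edgeR (4.0.16) fitted a quasi-likelihood model of day to 17 TMM-scaled libraries, and its F-test gave p-values. These were adjusted over all genes tested (Benjamini-Hochberg), and 0.05 was the threshold. The study's methods use DESeq2, which was run as an alternative (1.42.0). The single 5 dpi library enters the fit and the mean of 3 to 5 dpi and was not tested alone. CPM are counts scaled to TMM-normalised library sizes, and log2 CPM carry a prior count of 2. SE is the log2 fold change divided by the square root of F. The test was tested on simulated data. Each of 18 replicate pairs differed by more than sampling noise (chi-square per degree of freedom 22.3 to 218). Pairs with replicate 2 of 3 dpi were at 164 to 218, and the other pairs of 3 dpi at 23.3 to 36.7. Replicate numbers did not pair samples (mean correlation of deviations 0.011 over 30 same-numbered pairs, -0.005 over 72 others).

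Alternatives were another normalization, DESeq2, other filters, a robust spread, the replicate block, the sex-linked class as a term, fits on the days compared, 3 to 5 dpi without 3 or 5 dpi, and the omission of single libraries (16 fits). Fits within a sex-linked class, the time course without 3 or 5 dpi, and leaving out the macrophage-rich 3 dpi libraries were added after seeing the data. Named genes are the 9 genes, the pathway genes called across days, some uncalled pathway genes chosen after their values were seen (*Insr*, *Pappa*, *Irs1*, *Irs2*, *Akt1*), and the 3 genes most like each of the 9 in log2 CPM. One pathway gene is not reported here and is left out of the list counts. The genes, lists and tests were chosen with earlier results of these data known. Positions and exons are from GENCODE vM21 on GRCm38, and promoters from RefSeq on GRCm38.p6. Tables were handled with pandas (2.3.3) in Python (3.11.15), and figures drawn with matplotlib (3.10.9).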

Additional observations from a re-analysis of the deposited data

Results flagged for a closer look

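Only 3 dpi had enough libraries (4) to look for one far from its neighbours, by the gap to the nearest as a share of the range on the log2 CPM scale. Of 9 genes, 2 passed the critical value of Dixon's ratio, which chance alone passes in about 1 of 20 groups. For *Igfbp3* the ratio was 0.968, since replicate 4 was at 28.3 CPM and the others at 54.1 to 55.3 CPM. For *Igfbp4* it was 0.868, since replicate 2 was at 1960 CPM and the others at 847 to 946 CPM. Without replicate 2 of 3 dpi, the step from 4 to 6 dpi called, in edgeR, *Igfbp3* (adjusted p = 0.0324), *Igfbp4* (adjusted p = 0.0185) and *Igfbp6* (adjusted p = 0.0328), none of which passed with it. Calls of this step over all genes also moved, from 72 in the main fit to between 3 and 1402 with single libraries left out. The gain may therefore not be particular to these genes.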

How the results depend on the processing

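Of the 9 genes, edgeR called 6 across days and 0, 2, 1 and 0 in the steps 1 to 2, 2 to 3, 3 to 4 and 4 to 6 dpi. It called 4 between 6 and 1 dpi and 3 in the window of 3 to 5 against 1 to 2 dpi. DESeq2 called 7 across days, 0, 3, 2 and 3 in these steps, 4 between 6 and 1 dpi and 4 in the window. With every gene of at least 1 count kept, 1 passed at 1 to 2 dpi, 3 at 3 to 4 dpi and 3 at 4 to 6 dpi. Fitted on the days compared alone, 1 passed at 1 to 2 dpi and 1 at 2 to 3 dpi. At the step 3 to 4 dpi, 0 passed with DESeq2's size factors, with the sex-linked class as a term and without the 2 macrophage-rich 3 dpi libraries. The sex-linked term takes its effect from the 1 dpi libraries alone, the only day with both classes. Between 6 and 1 dpi, 0 passed with that term and 0 within the libraries with more *Xist* counts. With the replicate number as a block, 3 passed across days, 1 at 2 to 3 dpi and 0 at 3 to 4 dpi, and the samples share only a number. With each library left out in turn, the counts ran from 4 to 6, 0 to 0, 0 to 3, 0 to 1, 0 to 3, 0 to 5 and 2 to 4 in the order above.

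*Igfbp3* and *Igfbp6* across days and *Igfbp3* between 3 to 5 and 1 to 2 dpi kept their calls under each alternative run. No log2 fold change printed in the text for any of the 9 genes changed sign. Estimates of the other pathway genes were refitted in DESeq2 only, so their stability under the other alternatives was not examined. Of 36 other estimates of the 9 genes in single comparisons, 0 passed the test and 11 changed sign under some alternative. Each of these 11 was at most 0.488 in size on the log2 scale in the fit to 17 libraries. Counts over all genes moved more. Across days the count was 2099, with a range of 1102 (sex-linked term) to 3757 (DESeq2). For 3 to 4 dpi it was 380, with a range of 9 (that term) to 879 (DESeq2), and for 2 to 3 dpi 412, with a range of 174 (block) to 1042 (DESeq2). For 1 to 2 dpi it was 25 (8 to 153), for 4 to 6 dpi 72 (11 to 882), for 6 against 1 dpi 1700 (435 to 2427) and for 3 to 5 against 1 to 2 dpi 1050 (767 to 1555). With single libraries left out the range was 3 to 1402 for 4 to 6 dpi and 46 to 734 for 2 to 3 dpi. The share of calls that were higher, 60% for 3 to 4 dpi, ran from 46% (every gene of at least 1 count) to 72.8% (days compared alone). The causes were not tested. Depth limits *Igfbp2*, with at most 31 counts in a library.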
